A study of Homo sapiens with 6 samples.

Results

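The genes described here are the inhibitors of cyclin-dependent kinases (CDKs), the D-type cyclins and the retinoblastoma gene RB1, which together set the gate between the G1 and S phases of the cell cycle. They were chosen by symbol: 6 inhibitors (CDKN1A, CDKN1B, CDKN1C, CDKN2B, CDKN2C and CDKN2D), the D cyclins CCND1, CCND2 and CCND3, and RB1. Of these 10 genes, 9 were measured among 18417 genes in all, each by 1 transcript cluster, a set of probes designed against a single locus. CDKN2C was not analysed here.

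The cells were MDA-MB-231, a human breast cancer cell line without estrogen receptor, progesterone receptor or HER2 amplification, profiled on Affymetrix whole-transcript arrays. One group of 3 arrays came from cultures given 1 µM selamectin for 24 h, and the other group of 3 came from control cultures. The array titles call the controls untreated while the protocol speaks of vehicle, so what they received is not settled, and they are called untreated below. Selamectin is an antiparasitic macrocyclic lactone of the avermectin family, and the series title presents avermectins as inhibitors of the SIN3 corepressor, the scaffold that brings histone deacetylases to promoters. All cultures were of the same line and medium, and the line is one tumour's cells, known to lack the inhibitor gene CDKN2A and to carry mutant p53. The replicates are described as independent with no account of how cultures were separated, so the p-values measure the spread between these arrays.

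In a cell that receives growth signals, D cyclins bind CDK4 and CDK6 and begin the phosphorylation of the RB1 protein, which then releases E2F transcription factors to switch on genes for DNA replication. The INK4 inhibitors (CDKN2B, CDKN2C and CDKN2D here) block CDK4 and CDK6, whereas the CIP/KIP inhibitors (CDKN1A, CDKN1B and CDKN1C) bind a wider range of cyclin-CDK complexes. CDKN1A is a direct p53 target and is also among the genes most regularly raised by histone deacetylase inhibitors, through GC boxes near its start site that Sp1-family factors bind. CDKN1B and CCND1 are controlled to a large extent through protein turnover, which transcript arrays do not measure.

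None of the 9 genes passed the test after selamectin. CDKN1A and RB1 had the highest log2 changes, 0.40 and 0.33, and their selamectin and untreated arrays did not overlap, but their adjusted p-values in limma were 0.080 and 0.063. The other 7 genes lay between -0.15 and 0.10, with overlapping groups. In RNA from whole cultures, a different share of cells in each cycle phase and a different transcript level per cell cannot be told apart. By comparison, 2.41% of all 18417 genes were called higher and 2.28% lower at an adjusted p of 0.05 (4.69% in either direction), so a set of 9 genes with no call is near the background. Groups that did not overlap were seen for 2 of the 9 genes, both higher with selamectin, and for 25.3% of all genes, 16% higher and 9.3% lower. An unadjusted p under 0.05 was reached by the same number, 2 of 9, against 19.9% of all genes. The median log2 change was 0.05 over the 9 genes and 0.04 over all genes.

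Values are log2 expression values, of the kind RMA gives, and levels of different genes are not compared because each cluster has its own probes. In the principal component analysis of all genes, the first component held 45.8% of the variance and put the 3 selamectin arrays on the opposite side from the 3 untreated arrays. The second component held 20.8% and set selamectin array 3 apart, at 18.5, from the other 5 arrays at -9.8 to 4.0. The mesenchymal markers VIM, CD44, AXL, CAV1 and MSN had group means between 9.65 and 12.9 on selamectin arrays and between 9.595 and 12.7 on untreated arrays. Markers of luminal cells that the line should lack had means between 5.74 and 9.77 on selamectin arrays and between 5.60 and 9.76 on untreated arrays. CD44 was higher with selamectin (log2 change 0.42, limma adjusted p = 0.020) and was the only call among these 11 markers. An unadjusted p under 0.05 was reached by 3 of the 5 mesenchymal and 2 of the 6 luminal markers, against 19.9% of all genes. The 2 luminal markers were CDH1 and EPCAM, at log2 changes of -0.26 and -0.27. The other luminal changes were 0.14 for PGR, 0.16 for GATA3, 0.01 for FOXA1 and -0.17 for ESR1. Among 5 fibroblast, 3 leukocyte and 3 endothelial markers no gene passed the limma test, and 1, 0 and 2 of them had an unadjusted p under 0.05. The 2 endothelial markers were CDH5, at a log2 change of -0.59, and VWF, at 0.18. No detection calls were used, so it is not known which clusters lay above background.

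**Figure D1:**
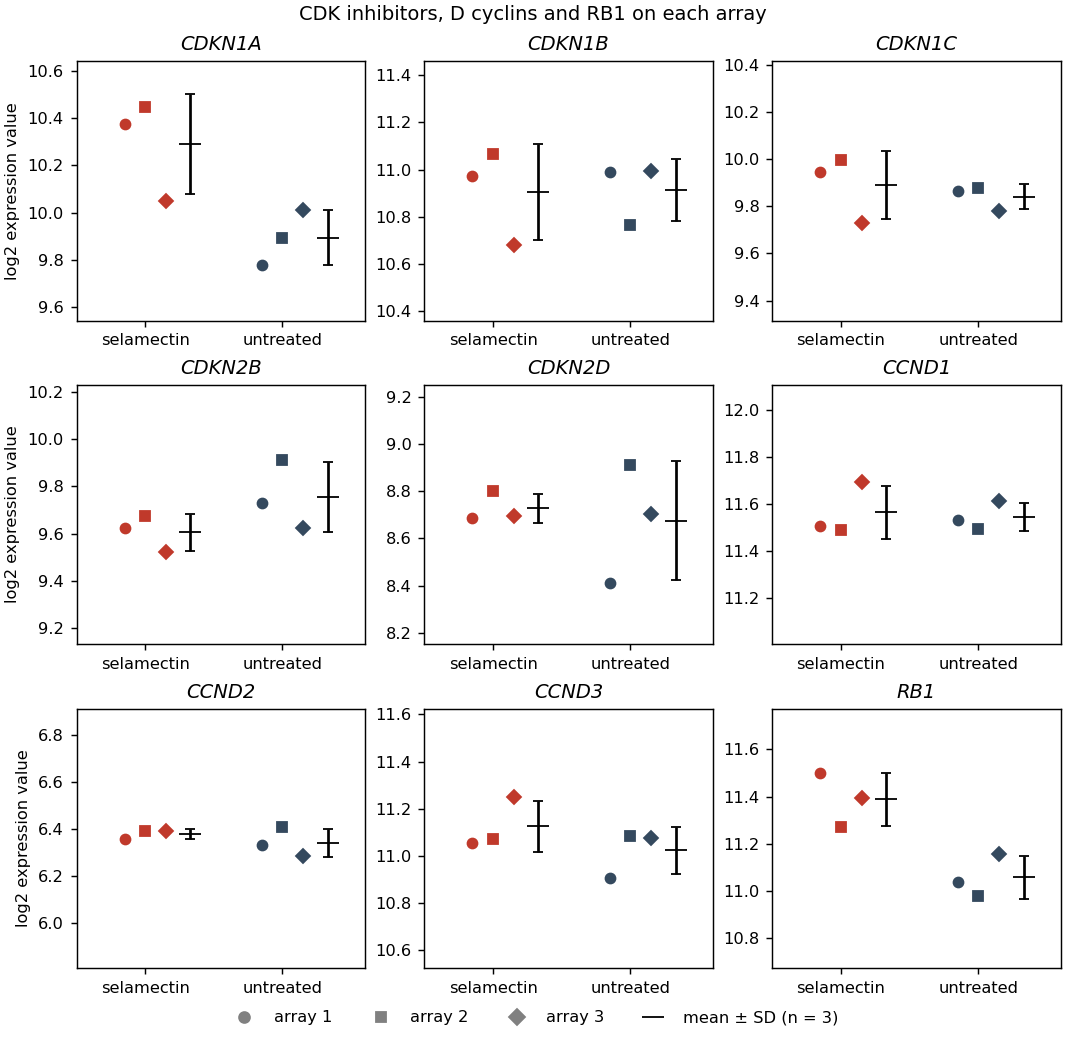
Log2 expression value (vertical axis, the same span of 1.1 units in every panel) of each measured gene on each array, with selamectin arrays left of untreated arrays. Symbols give the array number, and the black bar is the mean ± SD of 3 arrays. The groups are separate for CDKN1A, by 0.04 units, and for RB1, by 0.12 units, and overlap for the other 7 genes.

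CDKN1A, which encodes p21, had log2 values of 10.38, 10.45 and 10.05 on selamectin arrays 1 to 3, against 9.78, 9.89 and 10.01 on untreated arrays 1 to 3. All 3 selamectin values lay above all 3 untreated values, yet selamectin array 3 exceeded the highest untreated array by only 0.04. The means were 10.29 ± 0.21 with selamectin and 9.89 ± 0.12 untreated (SD, n = 3 each), a log2 change of 0.40 ± 0.12 (SE), or 1.32-fold (95% interval 1.10 to 1.57 before adjustment; limma adjusted p = 0.080). In absolute size, 5.28% of all genes changed more, and 7.33% had a smaller p. Without selamectin array 3 the log2 change of CDKN1A was 0.52 and passed (limma adjusted p = 0.012). Without any other single array it lay between 0.32 and 0.46, with a limma adjusted p from 0.12 to 0.29.

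The promoter of CDKN1A is shown beside that of CDKN1B, a related inhibitor with fewer GC boxes just before its start site. The pair was picked with their log2 changes of 0.40 and -0.01 already known, so their contrast is a description. The 250 bases before each start site are from RefSeq (GRCh38.p14), at chr6:36678464-36678713 on the plus strand for CDKN1A and at chr12:12717118-12717367 on the plus strand for CDKN1B. Capitals mark GC boxes, searched as GGGCGG and, for the other strand, CCGCCC, with overlapping matches counted.
CDKN1A: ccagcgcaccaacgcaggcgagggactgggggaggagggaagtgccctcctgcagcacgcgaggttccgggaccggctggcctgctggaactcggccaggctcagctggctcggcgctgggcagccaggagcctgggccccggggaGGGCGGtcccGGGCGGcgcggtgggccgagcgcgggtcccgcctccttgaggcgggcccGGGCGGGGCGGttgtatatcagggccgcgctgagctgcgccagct
CDKN1B: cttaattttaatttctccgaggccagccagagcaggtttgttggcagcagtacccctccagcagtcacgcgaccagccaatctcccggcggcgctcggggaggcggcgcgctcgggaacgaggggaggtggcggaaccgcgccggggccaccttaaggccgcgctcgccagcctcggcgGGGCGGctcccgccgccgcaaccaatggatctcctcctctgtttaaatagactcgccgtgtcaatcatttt
The CDKN1A window held 4 GC boxes, the first base of each between 104 and 40 bases before the start site. The last 2 of them share a base. The CDKN1B window held 1, starting 71 bases before the start site. Of 35116 promoter windows of the same length, 42.6% held at least 1 GC box and 7.63% held 4 or more. Among the other measured genes, CDKN2B (log2 change -0.15) and CDKN2D (0.05) held 2 each. No window was available for 3 genes, CDKN1C, CCND1 and CCND2. The 3 start sites of CCND3 (0.10) held 5, 2 and 0, and the RB1 (0.33) window, at a start site inside the gene, held 0. A match of these letters is a description of the sequence and was not tested against the expression values.

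CDKN1B, which encodes p27, showed no difference in level between the groups beyond the spread of the arrays. Its log2 values were 10.97, 11.06 and 10.68 with selamectin, against 10.99, 10.76 and 10.99 untreated. The log2 change of -0.01 had a 95% interval from -0.26 to 0.24, or 0.84-fold to 1.18-fold, and a limma adjusted p of 0.97. CDKN1C, which encodes p57 and is transcribed from the maternal allele in normal tissue, had log2 values of 9.94, 10.00 and 9.73 with selamectin, against 9.87, 9.88 and 9.78 untreated. Its log2 change was 0.05, with an interval from -0.17 to 0.27 (limma adjusted p = 0.81). In both genes selamectin array 3 was the lowest of all 6 arrays, as selamectin array 3 was the lowest treated array for CDKN1A. It was the lowest treated array for 48.1% of all genes.

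Neither measured INK4 inhibitor passed the test. CDKN2B, whose product p15 is induced by TGF-beta in epithelial cells, had log2 values of 9.62, 9.68 and 9.52 on selamectin arrays, against 9.73, 9.91 and 9.62 on untreated arrays. Selamectin arrays 1 and 2 lay within the untreated range and array 3 below it, and its log2 change of -0.15 was the lowest of the 9 genes (95% interval -0.37 to 0.07, limma adjusted p = 0.45). CDKN2D, which encodes p19 of the INK4 family, had 8.69, 8.80 and 8.69 with selamectin, against 8.41, 8.91 and 8.70 untreated. The untreated arrays of CDKN2D spanned 0.50 units, the widest span of any of the 9 genes in either group, and enclosed all 3 selamectin values (log2 change 0.05, limma adjusted p = 0.85).

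The mean levels of the D cyclins differed by 0.10 log2 units or less between the groups, and none passed the test. CCND1, the D cyclin most often amplified in breast cancer, had log2 values of 11.51, 11.49 and 11.69 with selamectin, against 11.53, 11.50 and 11.61 untreated. Its log2 change of 0.02 had an interval from -0.17 to 0.20 (limma adjusted p = 0.93), so the fold change lay within 0.89 and 1.15 at 95% before adjustment. CCND2, which is known to be silenced by promoter methylation in many breast cancers, had 6.36, 6.39 and 6.39 with selamectin, against 6.33, 6.41 and 6.28 untreated. Its log2 change was 0.04, with an interval from -0.12 to 0.20 (limma adjusted p = 0.80). CCND3, the third D cyclin, had 11.06, 11.07 and 11.25 with selamectin, against 10.91, 11.09 and 11.08 untreated, and its log2 change was 0.10 (interval -0.10 to 0.30, limma adjusted p = 0.58). For all 3 D cyclins selamectin array 3 was the highest treated array, whereas it was the lowest treated array for 4 of the 5 measured inhibitors, all but CDKN2D. Over all genes selamectin array 3 was the highest treated array for 25.4% and the lowest for 48.1%.

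RB1, the pocket protein that holds E2F factors inactive in G1, had log2 values of 11.50, 11.27 and 11.39 on selamectin arrays, against 11.04, 10.98 and 11.16 on untreated arrays. The lowest selamectin array stood 0.12 above the highest untreated array. The means were 11.39 ± 0.11 with selamectin and 11.06 ± 0.09 untreated (SD, n = 3 each), a log2 change of 0.33 ± 0.09 (SE), or 1.26-fold (95% interval 1.10 to 1.44 before adjustment; limma adjusted p = 0.063). In absolute size 8.54% of all genes changed more, and 5.84% had a smaller p. RB1 did not pass whichever single array was left out, with log2 changes between 0.28 and 0.39 and a limma adjusted p from 0.067 to 0.19. It passed when the fit held only genes brighter than the median gene (limma adjusted p = 0.046), with the same log2 change. With array weights both CDKN1A (log2 change 0.37, limma adjusted p = 0.017) and RB1 (0.26, 0.034) passed, in a fit that gave untreated array 3 a weight of 5.11 and the other arrays at most 1.22.

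**Figure D2:**
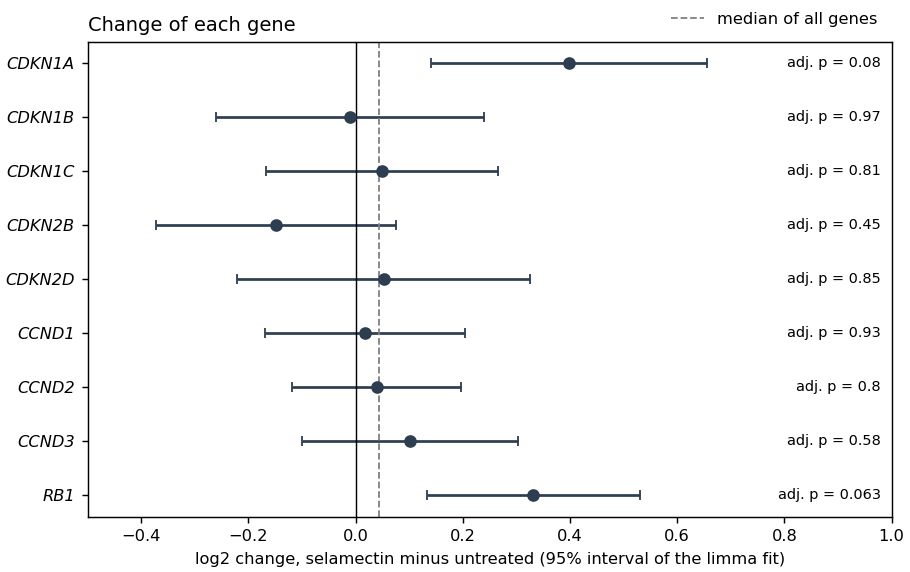
Log2 change of each measured gene, selamectin minus untreated (horizontal axis), with the 95% interval of the limma fit before adjustment and the adjusted p at the right. The intervals of CDKN1A (0.14 to 0.66) and RB1 (0.13 to 0.53) lie above 0, those of the other 7 genes include 0, and no adjusted p is under 0.05. The dashed line is the median of all genes, 0.04.

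RBL2, a relative of RB1 which encodes the pocket protein p130 that pairs with E2F4 and the DREAM complex in resting cells, fell to log2 values of 9.74, 9.61 and 9.51 on selamectin arrays, against 10.19, 10.19 and 10.15 on untreated arrays. The groups were far apart relative to the spread within them, with means of 9.62 ± 0.11 with selamectin and 10.18 ± 0.02 untreated (SD, n = 3 each). RBL2 was 1.47-fold lower with selamectin (log2 change -0.55 ± 0.09 SE, limma adjusted p = 0.0097). RBL2 lost its call without untreated array 1 (limma adjusted p = 0.052) and kept it without any other single array. RBL1, the p107 gene, stood at a log2 change of 0.06 (limma unadjusted p = 0.65). E2F4 had a log2 change of 0.37 with groups that did not overlap (limma adjusted p = 0.069). RBL1 and E2F4 are named here although the naming rule did not select them, with their values already known. The list of 18 pocket proteins, E2F factors and DREAM-MuvB subunits held no other call in either direction, and its median log2 change was 0.05. Its changes ran from -0.55 to 0.37, with 11 positive and 7 negative. At an unadjusted p under 0.05 in limma, 2 of its genes were higher and 2 lower, RBL2 included, against 19.9% of all genes in either direction.

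The kinases and other cyclins held no call with all arrays in the fit as reported. Of 18 genes measured, 2 were higher and 1 was lower at an unadjusted p under 0.05 in limma, against 19.9% of all genes in either direction. The median log2 change was -0.07. CDK4, the kinase partner of the D cyclins and the target of the INK4 inhibitors, had log2 values of 12.68, 12.71 and 12.92 with selamectin, against 12.14, 12.58 and 12.43 untreated. Its groups did not overlap, and its log2 change was 0.39 (limma adjusted p = 0.074). CDK4 passed without untreated array 2 (0.48, limma adjusted p = 0.049) and with array weights (0.32, 0.018). CCNE2, an E-type cyclin that activates CDK2 after the D cyclins have acted, had 10.01, 10.00 and 10.53 with selamectin, against 9.67, 9.66 and 9.90 untreated, a log2 change of 0.44 (limma adjusted p = 0.11). The change of CCNE2 was 0.26 without selamectin array 3 and 0.24 with array weights.

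Transcripts that E2F factors switch on at the start of S phase gave 1 call among 24 measured, higher in treated cells. CDC6, which loads the replicative helicase on DNA, rose to log2 values of 11.71, 11.73 and 11.78 with selamectin, against 11.32, 11.40 and 11.51 untreated (log2 change 0.33, limma adjusted p = 0.043). CDC6 lost its call whichever single array was left out (limma adjusted p from 0.052 to 0.16). The median log2 change of this list was 0.03, against 0.04 over all genes, and 14 genes had a positive and 10 a negative change. In this list 4 genes, CDC6 included, were higher and 0 lower at a limma unadjusted p under 0.05, against 19.9% of all genes in either direction. Among 10 proliferation markers, TOP2A, the DNA topoisomerase of dividing cells, was the only call and was lower. Its log2 values were 11.99, 11.84 and 12.11 with selamectin, against 12.40, 12.25 and 12.32 untreated (log2 change -0.34, limma adjusted p = 0.048). TOP2A kept its call without selamectin array 3 and lost it without any other single array (limma adjusted p from 0.064 to 0.19). The proliferation list had 3 positive and 7 negative changes, from -0.34 to 0.34, and a median of -0.14. At an unadjusted p under 0.05 in limma, 2 of its genes were higher and 3 lower, against 19.9% of all genes in either direction.

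Regulators of the inhibitors and D cyclins gave 2 calls among 28 measured, both lower with selamectin, where 2.28% of all genes were called lower. USP2, a deubiquitinase reported to stabilise cyclin D1 protein, fell to 8.22, 7.91 and 8.11 on selamectin arrays, against 8.53, 8.61 and 8.71 on untreated arrays, a log2 change of -0.54 (limma adjusted p = 0.018). PIM1, a kinase that phosphorylates p21 and p27, fell to 10.77, 10.76 and 10.37, against 11.07, 11.20 and 11.23 on untreated arrays, a log2 change of -0.54 (limma adjusted p = 0.027). USP2 kept its call without selamectin array 1, selamectin array 3 or untreated array 2 and lost it without any of the others (limma adjusted p from 0.053 to 0.089). PIM1 kept it without selamectin array 1 or selamectin array 3 and lost it without any of the others (0.058 to 0.11). The list's median log2 change was 0.01, with 14 positive and 14 negative changes. At an unadjusted p under 0.05 in limma, 5 of its genes were higher and 4 lower, against 19.9% of all genes in either direction.

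CDKN1A is both a p53 target and a gene raised by deacetylase inhibitors, and the other genes of each kind are given here. Of 20 other p53 targets measured, 2 passed the limma test with a positive change and none passed with a negative change. Over all genes, 2.41% were called higher and 2.28% lower. Before adjustment, the limma p was under 0.05 for 5 positive changes and 1 negative change, against 19.9% of all genes in either direction. The median log2 change of these targets was 0.15, against 0.04 over all genes. Positive changes made up 17 of the 20, against 63% of all genes. Groups did not overlap for 9 of the 20, against 25.3% of all genes. PLK2, a polo-like kinase named with its value already known, had a log2 change of -0.48 with groups that did not overlap (limma adjusted p = 0.055). PPM1D, named in the same way, had a log2 change of 0.35, also with groups that did not overlap (limma adjusted p = 0.054). TIGAR, a phosphatase that lowers glycolytic flux, rose to log2 values of 9.29, 9.27 and 8.91 with selamectin, against 8.56, 8.27 and 8.69 untreated (1.57-fold, limma adjusted p = 0.022). MDM2, the ubiquitin ligase of p53, rose to 11.74, 11.62 and 11.71, against 11.26, 11.23 and 11.41 untreated (1.31-fold, limma adjusted p = 0.027). TIGAR kept its call without selamectin array 3 or untreated array 3, and MDM2 without selamectin array 3. Without any of the other arrays the calls were lost, with a limma adjusted p from 0.056 to 0.098 for TIGAR and from 0.058 to 0.10 for MDM2. TIGAR is the protein-coding gene next to CCND2 on chromosome 12 in RefSeq, and CCND2 stood at a log2 change of 0.04. TIGAR, like CDKN1A and 48.1% of all genes, had its lowest treated value on selamectin array 3. The lowest treated value of MDM2 was on selamectin array 2.

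None of 8 other genes often changed by deacetylase inhibitors, in either direction, passed in limma. Of these, 0 were higher and 1 was lower at an unadjusted p under 0.05 in limma, against 19.9% of all genes in either direction. Their median log2 change was -0.08, with 2 positive and 6 negative changes. TXNIP, an inhibitor of thioredoxin that such drugs commonly raise, had log2 values of 13.07, 12.97 and 12.10 with selamectin, against 13.32, 13.31 and 13.36 untreated. Its groups did not overlap and its log2 change was -0.62, with a wide spread among treated arrays (SD 0.53 with selamectin and 0.03 untreated; limma adjusted p = 0.10). TXNIP passed without selamectin array 1 (log2 change -0.80, limma adjusted p = 0.043) and without selamectin array 3 (-0.31, 0.018). It also passed with array weights (-0.50, limma adjusted p = 0.025). With robust eBayes its limma adjusted p was 0.30, at a log2 change of -0.62. GADD45B, a stress-response gene, had 9.22, 9.14 and 8.59, against 9.17, 9.38 and 9.41 untreated, with overlapping groups (log2 change -0.33, limma adjusted p = 0.26). Without selamectin array 3 the change of GADD45B was -0.13. On selamectin array 3 CDKN1A, TXNIP and GADD45B were each at the lowest of their treated values, as were 48.1% of all genes.

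**Figure D3:**
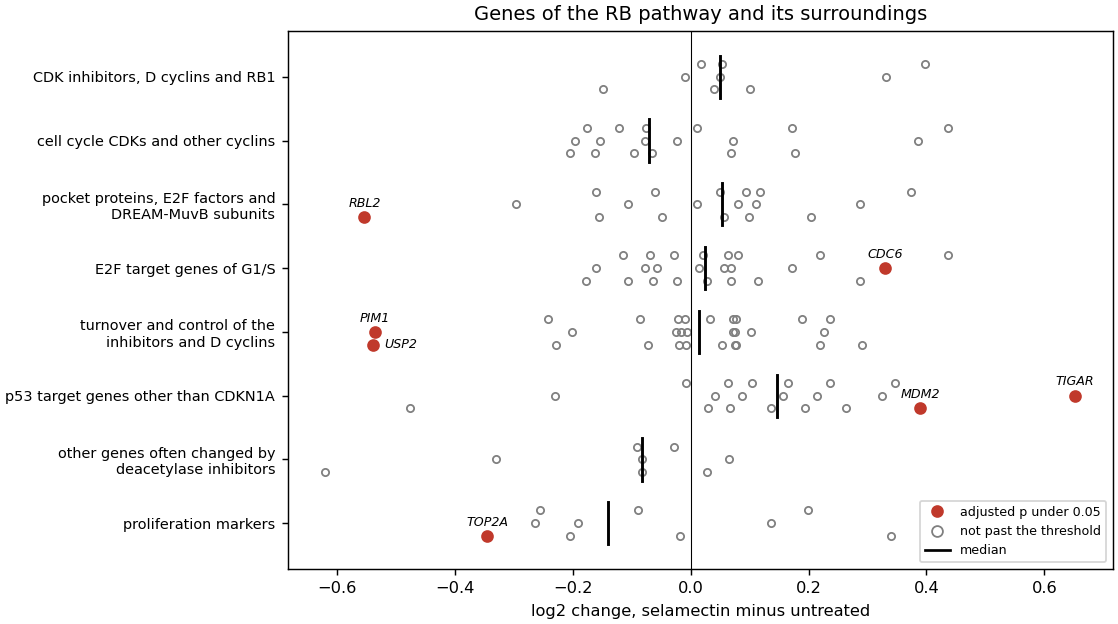
Log2 change, selamectin minus untreated (horizontal axis), of the 9 genes and of each list of surrounding genes, 1 circle per gene. Filled red circles passed an adjusted p of 0.05 in limma and are named, and the black bar is the list's median. The highest median is that of the p53 targets (0.15) and the lowest that of the proliferation markers (-0.14).

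Counting each gene once, 7 of 118 listed genes outside the 9 passed, 3 higher and 4 lower, which is 5.93% against 4.69% of all genes. When all 33297 clusters entered the fit, RBL2 was the only 1 of these 7 to pass (limma adjusted p = 0.045), and CDKN1A and RB1 stood at 0.19 and 0.14. The genes whose array-to-array profile lay nearest to that of CDKN1A were sought among 11954 genes with a mean log2 value of 7 or more, each centred on its own mean over the 6 arrays. The nearest was SLC25A4, the mitochondrial ADP/ATP carrier, at a root mean square difference of 0.037 log2 units, with a log2 change of 0.39 (limma adjusted p = 0.10). NFYC, a subunit of the CCAAT-binding factor NF-Y, followed at 0.046, with a log2 change of 0.47 (limma adjusted p = 0.039), and PRR3 at 0.047, with a log2 change of 0.44 (limma adjusted p = 0.053). These genes were picked for their likeness to CDKN1A, so their changes are a description.

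**Figure D4:**
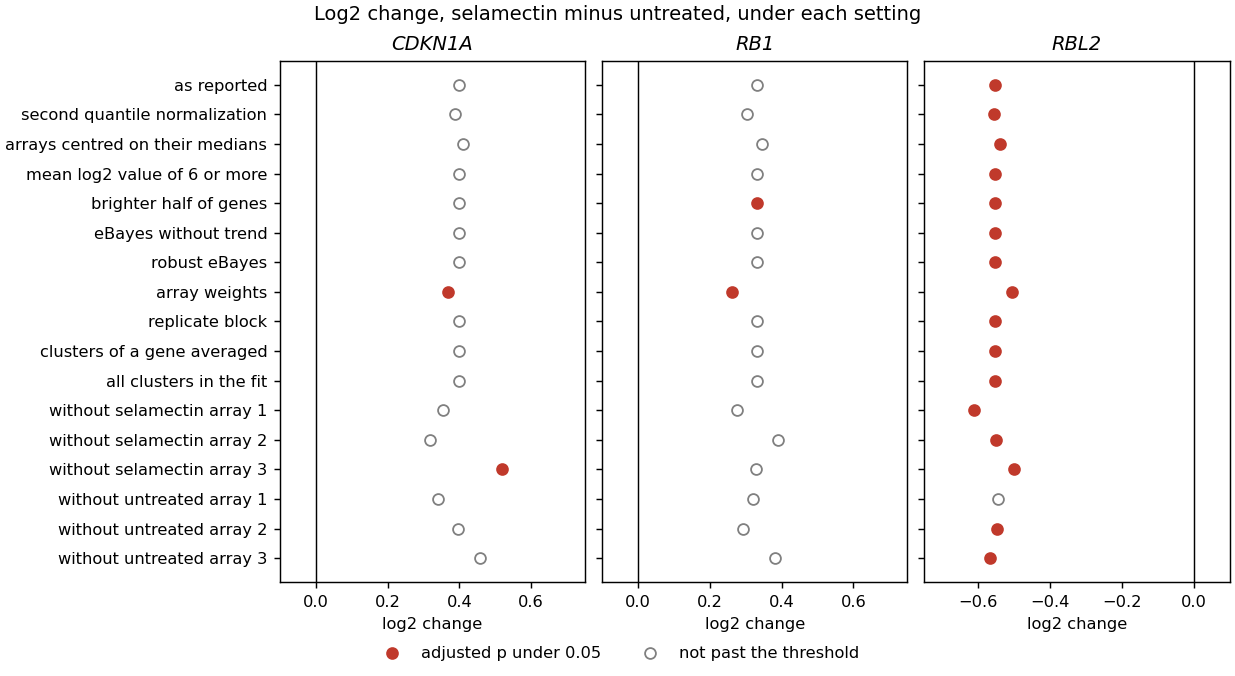
Log2 change, selamectin minus untreated (horizontal axis), of CDKN1A, RB1 and RBL2 as reported and under 16 other settings (rows), with filled red circles where the adjusted p in limma was under 0.05. CDKN1A and RB1 stayed above 0 and RBL2 below 0 in every setting shown. CDKN1A passed under 2 of the 16 settings and RB1 under 2, while RBL2 passed under 15.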

How the data were processed

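The authors deposited 1 log2 expression value for each of 33297 transcript clusters on 6 arrays. Per the submitters' processing notes the tools were RMA, Affymetrix Expression Console and Transcriptome Analysis Console (versions and roles not given in the sources used here). The log base is not stated and is taken as log2 from the values. RMA as commonly run quantile-normalizes arrays together, which hides a shift common to all genes of a group. The changes of dim genes tend to be shrunken in such values. Array medians lay between 7.47 and 7.51.

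Of the clusters, 19460 had 1 symbol in the platform annotation. For a symbol with several clusters the one with the highest mean was kept, which left 18417 genes. These were fitted with limma 3.58.1 in R 4.3.3 (lmFit, eBayes with trend), as a two-sided test of selamectin minus untreated with no block term. P-values were adjusted over the whole table by Benjamini-Hochberg, with 0.05 as the threshold. The fit was checked on simulated data. There is no read depth, and 3 arrays per group limit the precision (median standard error 0.094 log2 units). No batch information on the arrays was used.

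The members and lists were chosen with earlier results of these data known. All 9 members are named. Each list is given by its genes past the threshold (up to 4) or, with none, the 2 with the smallest p. Genes nearest to CDKN1A exclude small RNA and placeholder symbols. Alternatives were leaving out each array, the replicate number as a block, weighting of arrays, eBayes without trend or robust, a repeated quantile normalization, centring on medians, leaving out dim genes, averaging clusters of a gene, and a fit of all clusters.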

Additional observations from a re-analysis of the deposited data

How the results depend on the processing

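Of 143 values of the 9 genes under 16 other settings, 129 kept direction and side of the threshold, 10 changed sign and 4 came to pass. CDKN1A passed with array weights (0.37) and without selamectin array 3 (0.52), and RB1 passed with array weights (0.26) and among genes brighter than the median gene (0.33). The array weight was 5.11 for untreated array 3 and at most 1.22 for the others. Sign changes were confined to genes near 0: CDKN1B was 0.0031 with median-centred arrays, 0.10 without selamectin array 3, 0.027 without untreated array 1 and 0.029 without untreated array 3. CCND1 was -0.013 with a second quantile normalization, -0.060 with array weights, -0.047 without selamectin array 3 and -0.0070 without untreated array 2. CDKN1C was -0.0044 without selamectin array 2 and CDKN2D -0.081 without untreated array 1.

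Leaving out 1 array gave 0.32 to 0.52 for CDKN1A, -0.090 to 0.10 for CDKN1B, -0.0044 to 0.13 for CDKN1C, -0.22 to -0.070 for CDKN2B, -0.081 to 0.17 for CDKN2D, -0.047 to 0.055 for CCND1, 0.011 to 0.072 for CCND2, 0.039 to 0.14 for CCND3 and 0.28 to 0.39 for RB1. The members called higher, 0 as reported, were 1 among genes brighter than the median gene, 2 with array weights and 0 to 1 when an array was left out; no member was called lower in any setting. The pathway genes called, 7 as reported, were 12 among genes brighter than the median gene, 26 with array weights, 1 with all clusters in the fit, 4 with the replicate block and 0 to 10 when an array was left out. The cause of these shifts was not tested. CCND2 is dimmer than the median gene and has no value among the brighter genes.

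With the replicate block the adjusted p was 0.12 for CDKN1A (log2 change 0.40) and 0.076 for RB1 (log2 change 0.33). The labels give both groups the same numbers without stating that these mark a shared day, so the numbers were not taken as pairs. Deviations of same-numbered arrays from their group means correlated at -0.01, 0.24 and -0.14 across genes for numbers 1, 2 and 3. Not every array correlated best with its own number. Signal over background is unknown without detection calls.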
